A study of Rattus norvegicus with 30 samples.

Results

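The cytochrome P450 2C (Cyp2c) family was followed in primary rat hepatocytes exposed to diisononyl phthalate (DINP), a phthalate ester used to soften plastics. Its members here were the genes Cyp2c6v1, Cyp2c7, Cyp2c11, Cyp2c13, Cyp2c22 and Cyp2c23, found as every probe set that the platform annotation maps to 1 of them alone, by current or older symbol. The rule found 6 probe sets, 1 for each gene, among 31042 probe sets that are not controls and 14217 named genes, and 0 probe sets named a member among several genes. All 6 passed the filter on dim signals, which kept 18625 probe sets. The reference gene table holds 17 Cyp2c symbols, all on chromosome 1, of which 11 are protein coding and 6 are pseudogenes; 7 of the 17, the 6 members and the female-specific Cyp2c12, had a probe set of their own.

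The cells were bought frozen, came from male Sprague Dawley rats and were cultured on collagen under a layer of Matrigel. On the third day of culture they received DINP or the vehicle, 1% DMSO, and RNA was taken later for Affymetrix expression arrays. The 6 groups held 5 wells each, with 1 array per well: DINP 25 mM for 48 h, DINP 100 mM for 48 h, vehicle for 48 h, DINP 25 mM for 24 h, DINP 100 mM for 24 h and vehicle for 24 h. The doses carry the unit that the labels write, and whether mM is meant could not be checked. The labels call the wells separate cultures but do not give the donor animals, so each p-value measures the spread between wells. The design asks which transcripts each dose altered and if the responses differed by dose or by time.

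Enzymes of the CYP2C family are haem proteins of the endoplasmic reticulum that take electrons from cytochrome P450 reductase and oxidise drugs, steroids, retinoids and fatty acids. In rat liver several of them differ between the sexes: Cyp2c11 and Cyp2c13 are male-specific, Cyp2c12 is female-specific and Cyp2c7 is higher in females, under control of the pattern of growth hormone secretion. Cyp2c6v1 is made in both sexes and is inducible by phenobarbital-type compounds, Cyp2c22 oxidises retinoic acid, and Cyp2c23 turns arachidonic acid into epoxides, mainly in kidney.

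On the log2 scale Cyp2c11 was the member most lowered against vehicle with DINP, and Cyp2c13 and Cyp2c7 fell most between 24 and 48 h. The upstream sequences of these 3 members are shown. Each holds the 250 bases before the RefSeq gene start on assembly GRCr8, read in the direction of the gene. Cyp2c11 lies at chr1:246174966-246175215 on the plus strand, Cyp2c13 at chr1:248787189-248787438 on the minus strand and Cyp2c7 at chr1:247966144-247966393 on the plus strand. Capitals mark matches, on either strand, to 3 short motifs, spelled out after the sequences: the TATA box, a nuclear receptor half-site and the core bound by Onecut factors.
Cyp2c11: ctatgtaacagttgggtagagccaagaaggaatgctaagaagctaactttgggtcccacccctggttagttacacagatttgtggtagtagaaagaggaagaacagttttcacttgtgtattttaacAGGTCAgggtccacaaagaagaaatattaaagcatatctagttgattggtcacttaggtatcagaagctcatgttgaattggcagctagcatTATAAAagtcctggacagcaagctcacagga
Cyp2c13: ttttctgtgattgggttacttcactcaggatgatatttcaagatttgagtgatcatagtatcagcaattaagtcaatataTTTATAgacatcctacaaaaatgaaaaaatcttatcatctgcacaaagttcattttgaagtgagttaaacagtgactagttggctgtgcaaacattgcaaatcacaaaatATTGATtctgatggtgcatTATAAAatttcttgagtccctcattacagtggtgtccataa
Cyp2c7: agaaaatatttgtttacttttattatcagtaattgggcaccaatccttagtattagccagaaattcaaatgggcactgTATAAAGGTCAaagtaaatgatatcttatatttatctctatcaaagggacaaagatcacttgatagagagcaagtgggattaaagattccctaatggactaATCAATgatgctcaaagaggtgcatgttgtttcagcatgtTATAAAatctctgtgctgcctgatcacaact

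The TATA box motif, TATAAA, on the coding strand stood 31 to 26 bases before the start in both Cyp2c7 and Cyp2c11 and 41 to 36 bases before it in Cyp2c13. In Cyp2c7 a further TATAAA, 172 to 167 bases before the start, shared its last base with a half-site motif, AGGTCA, at 167 to 162. The promoter table held 5 of the 6 members; Cyp2c6v1 was not matched. TATAAA was found in 4 of those 5, in all but Cyp2c23, and in 13.2% of 27457 promoters of the same length. AGGTCA was found in 3 of the 5 (Cyp2c7, Cyp2c11 and Cyp2c22), against 13.7% of all promoters, and the Onecut core, ATTGAT, in 2 of the 5 (Cyp2c7 and Cyp2c13), against 6.95%. TTNNGNAA, a C/EBP pattern, was found in Cyp2c7, Cyp2c22 and Cyp2c23, against 37% of all promoters. Neither TTCNNNGAA (a STAT pattern, in 7.57% of all) nor a direct repeat of the half-site with 1 base between the copies (0.051% of all) was in any of the 5 windows. Such matches describe the letters alone. The best local alignment between the upstream windows of Cyp2c13 and Cyp2c12 ran over 200 columns with 73% identity and that of Cyp2c7 and Cyp2c12 over 68 columns with 75%, whereas every pair among the 5 members aligned over 28 columns or fewer.

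Each array gave 1 linear signal per probe set, made by the authors with MAS5, and tests were run on log2(signal + 16). Differences are given on that scale with limma's moderated standard error, 5 arrays against 5, and limma's p-value adjusted over all 18625 tested probe sets; a probe set was called when that p lay under 0.05. The number of arrays limits the precision. On 489 probe sets vehicle 48 h replicate 1 stood apart from its group, against 160 to 339 for the other 29 arrays. An array stood apart where its gap to the next array exceeded 0.71 of the group's range. Without vehicle 48 h replicate 1 the 6 members kept every call and non-call against vehicle at 48 h. The lists were not refitted without it. Ratios of 3′ to 5′ control signals, a sign of RNA quality, overlapped between all groups. In bulk cultures fewer cells and less RNA per cell cannot be told apart. Probes for one Cyp2c transcript can bind another: the probe set of Cyp2c13 carries the suffix that Affymetrix gives to probe sets matching several transcripts (_s_at) and that of Cyp2c6v1 the suffix for several transcripts of one gene (_a_at), while the other 4 carry neither. Cross-binding was not tested, because probe sequences were not used here.

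After 48 h with DINP the family split: the male-specific Cyp2c11 was lower at both doses and Cyp2c6v1 was higher at both, while Cyp2c13 and Cyp2c7 were called at neither dose. At 25 mM 2 of the 6 members were called, 1 higher and 1 lower, against 17.9% of all tested probe sets (7.41% higher, 10.5% lower). At 100 mM 4 of the 6 were called, 2 higher and 2 lower, against 14.6% of all (6.49% higher, 8.07% lower); the 2 further calls, Cyp2c22 higher and Cyp2c23 lower, were smaller and rested on single arrays, as given below. The median difference of the 6 members was 0.13 at 25 mM and 0.08 at 100 mM, against -0.03 and -0.07 over all tested probe sets. The doses at each time share their 5 vehicle arrays, so their values are set side by side and are not independent.

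**Figure D1:**
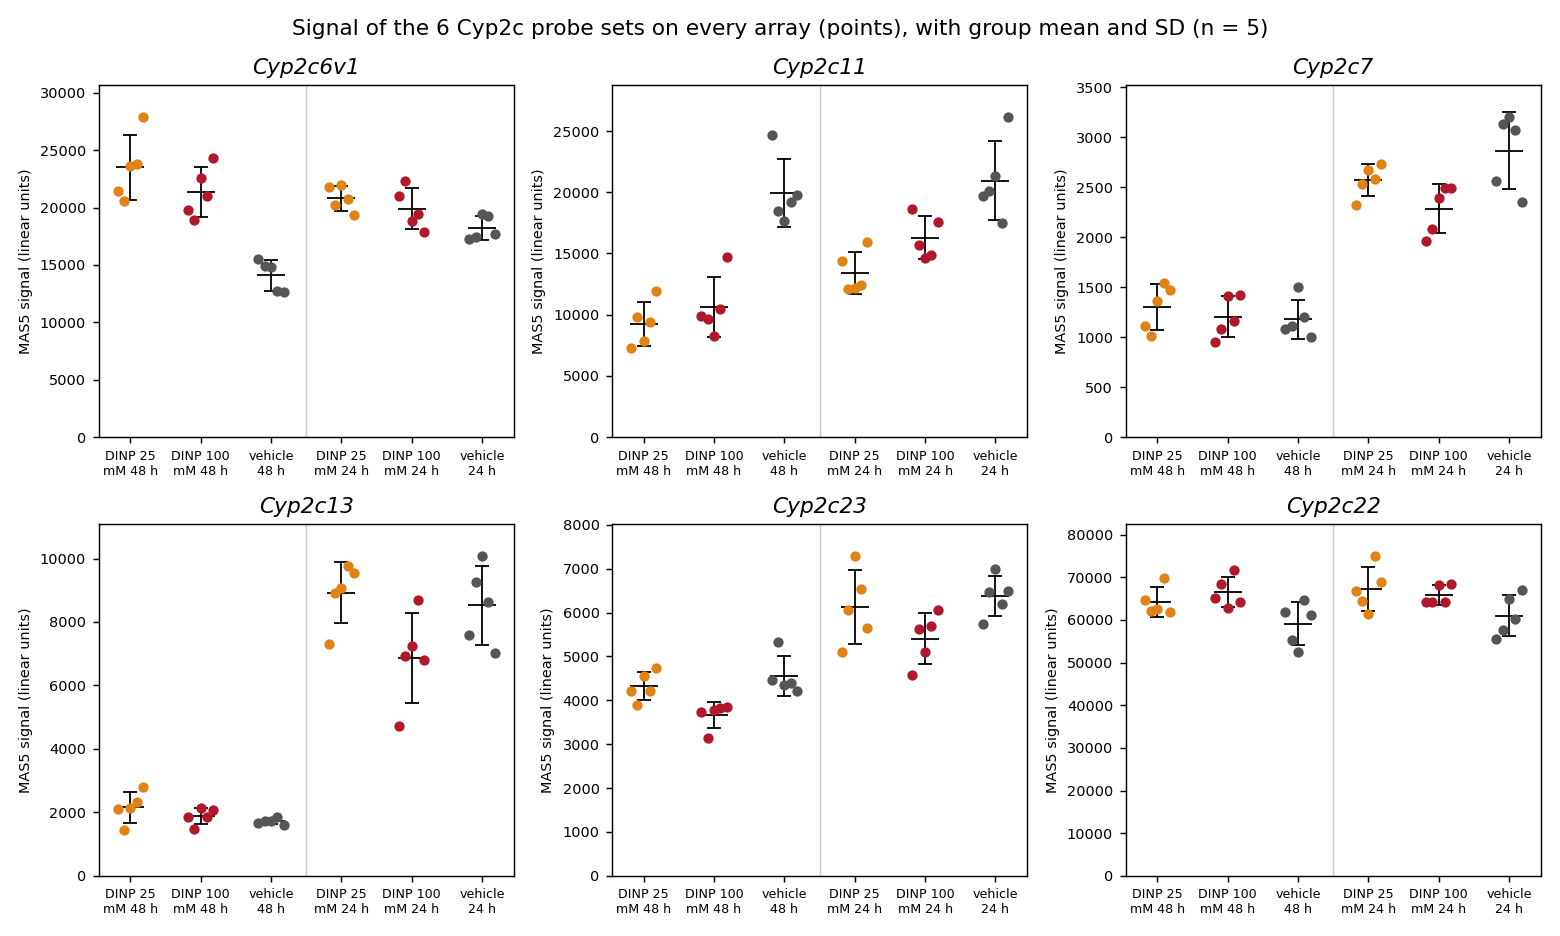
Signal of each Cyp2c probe set on every array (points, linear MAS5 units, axes from 0), with group mean and SD (bars, n = 5), for 48 h on the left and 24 h on the right of each panel. At 48 h all 10 DINP arrays lay below all 5 vehicle arrays for Cyp2c11 and above them for Cyp2c6v1, and Cyp2c13 and Cyp2c7 lay lower at 48 h than at 24 h in every treatment.

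Cyp2c11, the main P450 of adult male rat liver, which hydroxylates testosterone, had signals of 7293, 9845, 7834, 9362 and 11900 with DINP 25 mM at 48 h. With DINP 100 mM the signals were 9862, 9667, 8229, 10463 and 14721. Vehicle wells of that time gave 24682, 18472, 17620, 19201 and 19782. Every DINP array was below every vehicle array, and the highest DINP array was replicate 5 at 100 mM. The level was 2.17-fold lower at 25 mM (-1.12 ± 0.13, adjusted p = 5.09e-08) and 1.91-fold lower at 100 mM (-0.93 ± 0.13, adjusted p = 2.04e-06). By size this was the 57th most lowered of 18625 probe sets at 25 mM and the 129th at 100 mM. Without vehicle 48 h replicate 1, the array with the highest vehicle signal, the differences were -1.04 (adjusted p = 3.85e-07) and -0.85 (adjusted p = 1.40e-05).

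Its fall was already present at 24 h with 25 mM. Signals there were 14395, 12106, 12170, 12383 and 15904, against 19708, 20115, 21304, 17484 and 26154 in vehicle wells of 24 h. The groups did not overlap, and the level was 1.56-fold lower (-0.64 ± 0.13, adjusted p = 0.000513). DINP 100 mM gave 18632, 15729, 14652, 14908 and 17548 at 24 h, which overlapped the vehicle range, and the difference of -0.36 ± 0.13 missed the threshold (adjusted p = 0.0671). Over the 6 groups the mean Cyp2c11 signal was lowest with 25 mM at 48 h (9247 ± 1818, SD, n = 5), then 10589 ± 2451 with 100 mM at 48 h, 13392 ± 1694 with 25 mM at 24 h, 16294 ± 1730 with 100 mM at 24 h, 19952 ± 2766 with vehicle at 48 h and 20953 ± 3220 with vehicle at 24 h. The 2 doses at 48 h, the 2 doses at 24 h and the 2 vehicle groups did not differ beyond the test's threshold. The other neighbours in that order differ in both dose and time and were not tested, and their arrays overlapped.

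Cyp2c6v1, which oxidises many drugs in rat liver, moved the other way. With DINP 25 mM at 48 h its signals were 21477, 20607, 23632, 23830 and 27891. With DINP 100 mM they were 19812, 18885, 22596, 20963 and 24350. Vehicle wells gave 15500, 14926, 14812, 12716 and 12611. All DINP arrays lay above all vehicle arrays. The level was 1.66-fold higher at 25 mM (0.73 ± 0.08, adjusted p = 6.92e-09) and 1.51-fold higher at 100 mM (0.59 ± 0.08, adjusted p = 5.68e-07). Without vehicle 48 h replicate 1 the differences were 0.77 (adjusted p = 8.19e-09) and 0.63 (adjusted p = 4.75e-07). By size the rise at 25 mM was the 346th among the tested probe sets.

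At 24 h the same gene was not called. Its signals were 21785, 20183, 21960, 20768 and 19371 with 25 mM and 20969, 22340, 18833, 19471 and 17872 with 100 mM, against 17265, 17438, 19405, 19294 and 17684 in vehicle wells. Ranges overlapped narrowly at 25 mM, where the lowest DINP array lay between the vehicle arrays. The differences were 0.19 ± 0.08 (adjusted p = 0.097) and 0.12 ± 0.08 (adjusted p = 0.333). The 25 mM difference was called with each array centred on its median (0.27, adjusted p = 0.0311) and when the fit held just the compared groups (adjusted p = 0.0281).

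Taking both genes on the same array removes any factor common to the array. The log2 signal of Cyp2c6v1 minus that of Cyp2c11 averaged 1.36 with 25 mM at 48 h (1.06 to 1.59), 1.03 with 100 mM (0.73 to 1.46) and -0.49 in vehicle wells (-0.67 to -0.25). At 24 h it averaged 0.64 with 25 mM (0.28 to 0.85), 0.29 with 100 mM (0.03 to 0.51) and -0.19 in vehicle wells (-0.56 to 0.14). Only the change of this difference between groups can be read, since levels of separate probe sets are not comparable. The DINP and vehicle ranges did not overlap at 48 h at either dose or at 24 h with 25 mM, and overlapped at 24 h with 100 mM.

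**Figure D2:**
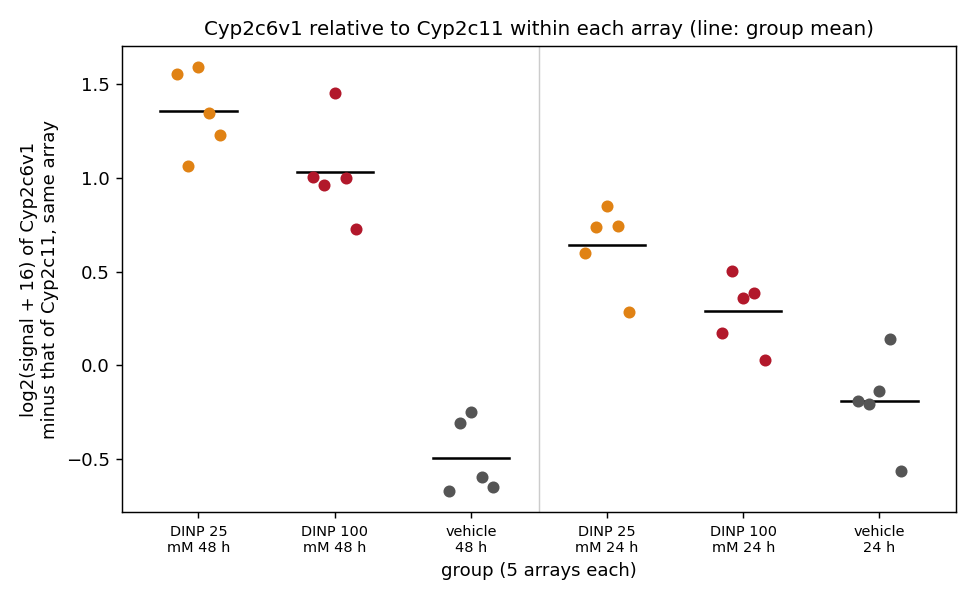
Log2(signal + 16) of Cyp2c6v1 minus that of Cyp2c11 on each array (points; lines are group means, 5 arrays each), 48 h left and 24 h right. DINP arrays at 48 h ran from 0.73 to 1.59 and vehicle arrays from -0.67 to -0.25, and the level on the axis has a meaning only between groups.

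Cyp2c13, the other male-specific member, showed a large difference with time and none that passed the test with DINP. Its signals with DINP 25 mM at 48 h were 2094, 1434, 2152, 2317 and 2784, and with DINP 100 mM 1868, 1483, 2151, 1838 and 2065, against 1671, 1729, 1733, 1844 and 1598 in vehicle wells. These groups overlapped, with differences of 0.30 ± 0.14 (adjusted p = 0.147) and 0.12 ± 0.14 (adjusted p = 0.623). Without DINP 25 mM 48 h replicate 2, the lowest array, the first was 0.44 and passed (adjusted p = 0.0152). At 24 h it gave 7313, 8901, 9086, 9772 and 9559 with 25 mM, 4721, 6941, 7238, 8688 and 6798 with 100 mM, and 7595, 9274, 10090, 8636 and 7031 with vehicle. These overlapped as well (differences of 0.07 ± 0.14, adjusted p = 0.814, and -0.32 ± 0.14, adjusted p = 0.132).

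Every 48 h array of Cyp2c13 lay below every 24 h array, in each treatment. At 48 h its level was 4.19-fold lower than at 24 h with 25 mM (-2.07 ± 0.14, adjusted p = 2.06e-12), 3.6-fold lower with 100 mM (-1.85 ± 0.14, adjusted p = 3.37e-11) and 4.9-fold lower with vehicle (-2.29 ± 0.14, adjusted p = 1.66e-13). It was the 2nd, the 4th and the 3rd most lowered of the 18625 tested probe sets in these comparisons. Time after dosing and time in culture pass together here and cannot be told apart.

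Cyp2c7, which is higher in female rats and oxidises retinoic acid, was also lower at 48 h than at 24 h in each treatment, with smaller differences. It had signals of 1113, 1010, 1362, 1544 and 1476 with 25 mM, 948, 1086, 1409, 1159 and 1423 with 100 mM, and 1079, 1112, 1498, 1201 and 1000 with vehicle at 48 h. At 24 h the signals were 2323, 2530, 2678, 2587 and 2732 with 25 mM, 1964, 2083, 2391, 2489 and 2495 with 100 mM, and 2562, 3138, 3204, 3077 and 2356 with vehicle. The DINP and vehicle arrays of a time overlapped, and those of 48 h lay below those of 24 h without overlap. Against vehicle the differences were 0.14 ± 0.12 (adjusted p = 0.521) with 25 mM and 0.03 ± 0.12 (adjusted p = 0.917) with 100 mM at 48 h, and -0.15 ± 0.12 (adjusted p = 0.511) and -0.32 ± 0.12 (adjusted p = 0.088) at 24 h. From 24 h, the level at 48 h was 1.99-fold lower with 25 mM (-0.99 ± 0.12, adjusted p = 7.66e-07), 1.9-fold lower with 100 mM (-0.92 ± 0.12, adjusted p = 3.72e-06) and 2.42-fold lower with vehicle (-1.28 ± 0.12, adjusted p = 6.67e-09).

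Over the 30 arrays the log2 signals of Cyp2c7 and Cyp2c13 had a Pearson correlation of 0.969, and 0.719 after each group's mean was taken off. The points share arrays and, in the first value, the 6 groups, so both describe these arrays. The windows printed above for Cyp2c7 and Cyp2c13 both hold ATTGAT, and aligned with each other over 13 columns. Whether the motif, or cross-binding of the Cyp2c13 probe set (_s_at), has a part in the correlation was not tested.

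Cyp2c23, an arachidonic acid epoxygenase, had signals of 4216, 3905, 4559, 4215 and 4728 with 25 mM at 48 h, 3731, 3132, 3770, 3834 and 3845 with 100 mM, and 4467, 5340, 4342, 4386 and 4217 with vehicle. The 100 mM arrays lay below all vehicle arrays, and the 25 mM arrays overlapped them. The difference was -0.31 ± 0.09 with 100 mM (adjusted p = 0.012) and -0.07 ± 0.09 with 25 mM (adjusted p = 0.657). The call at 100 mM was lost without vehicle 48 h replicate 2, which was the highest array (-0.25, adjusted p = 0.0557), without DINP 100 mM 48 h replicate 2, which was the lowest (-0.26, adjusted p = 0.0531), and with each array centred on its median (-0.21, adjusted p = 0.243). At 24 h it gave 5108, 6062, 7298, 6527 and 5647 with 25 mM, 4572, 5624, 5093, 5696 and 6055 with 100 mM, and 5732, 6481, 6987, 6193 and 6487 with vehicle. Both doses overlapped the vehicle arrays (differences of -0.06 ± 0.09, adjusted p = 0.716, and -0.24 ± 0.09, adjusted p = 0.0657). At 48 h Cyp2c23 was lower than at 24 h with 25 mM (-0.49 ± 0.09, adjusted p = 0.000139), with 100 mM (-0.56 ± 0.09, adjusted p = 3.84e-05) and with vehicle (-0.49 ± 0.09, adjusted p = 0.000172).

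Cyp2c22, a retinoic acid-oxidising member, varied least, with group means from 59075 to 67294. At 48 h its signals were 64777, 62013, 62471, 69959 and 61784 with 25 mM, 65237, 68465, 62865, 71680 and 64275 with 100 mM, and 61807, 55204, 52492, 64736 and 61137 with vehicle. The 100 mM arrays overlapped the vehicle arrays, and the 1.13-fold higher level there was called (0.17 ± 0.06, adjusted p = 0.0422). With quantile normalisation it was 0.04 (adjusted p = 0.565), and the call was also lost without a filter (adjusted p = 0.0824), when the fit held just the compared groups (adjusted p = 0.0828), without a trend in the fit (adjusted p = 0.0863), and without any of DINP 100 mM 48 h replicates 1, 2 and 4 or vehicle 48 h replicates 2 and 3 (adjusted p = 0.0571 to 0.155). Its other differences from vehicle were 0.12 ± 0.06 with 25 mM at 48 h (adjusted p = 0.161), 0.14 ± 0.06 with 25 mM at 24 h (adjusted p = 0.116) and 0.11 ± 0.06 with 100 mM at 24 h (adjusted p = 0.235). Between 48 and 24 h its differences lay between -0.07 and 0.01 in the 3 treatments, with the adjusted p between 0.519 and 0.936.

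**Figure D3:**
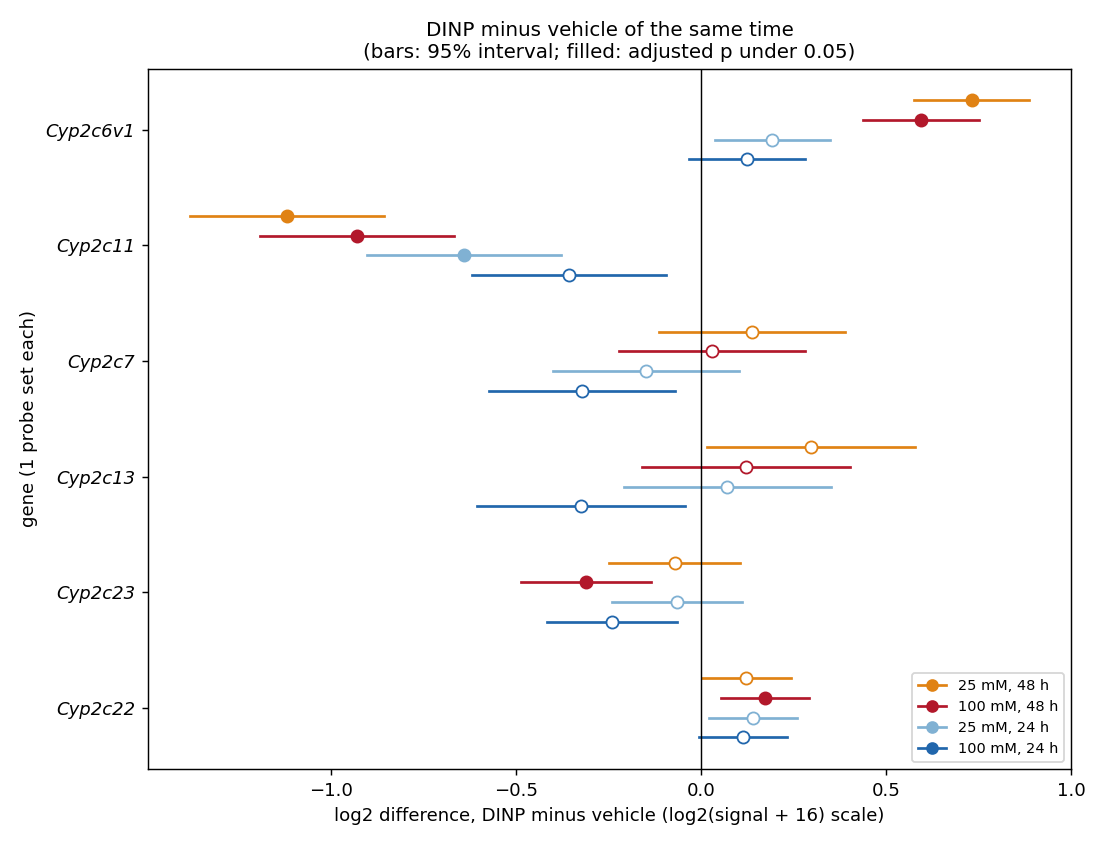
Log2 difference of DINP minus the vehicle of the same time for each member (points; bars are 95% intervals; filled points passed the adjusted p of 0.05). Cyp2c11 lay left of 0 and Cyp2c6v1 right of 0 in all 4 comparisons, with differences at 48 h of -1.12 and -0.93 for Cyp2c11 and of 0.73 and 0.59 for Cyp2c6v1.

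At 24 h the family's counts were close to the share of all tested probe sets, as far as 6 members can show. With 25 mM 1 of the 6 members was called, Cyp2c11, against 13.3% of all tested probe sets (7.49% lower). With 100 mM 0 of the 6 were called by limma, against 12.3% of all. Unadjusted p-values there lay under 0.05 for Cyp2c7, Cyp2c11, Cyp2c13 and Cyp2c23, all lower. The share of all probe sets under that unadjusted cut-off was not counted, and the 12.3% is for adjusted p. The members' median difference was -0.28 with 100 mM and 0.00322 with 25 mM, against -0.05 over all probe sets in both. The 24 h count with 100 mM depended on the fit: it was 2 with the array round as a block (Cyp2c7 and Cyp2c11), 3 with just the compared groups or with array weights (Cyp2c7, Cyp2c11 and Cyp2c23), and 1 with quantile normalisation (Cyp2c11).

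The doses were set against each other at matched times. By limma 0 of the 6 members differed between 100 and 25 mM at 48 h or at 24 h, against 0.00537% and 0.0107% of all tested probe sets, and a p that misses the threshold does not show equal effects. For Cyp2c11 the difference, 100 minus 25 mM, was 0.19 at 48 h (95% interval -0.07 to 0.45) and 0.29 at 24 h (0.02 to 0.55). That of Cyp2c6v1 was -0.14 at 48 h (-0.29 to 0.02) and -0.07 at 24 h (-0.22 to 0.09). Unadjusted p-values under 0.05 were those of Cyp2c23 at 48 h (-0.24, -0.42 to -0.06), where the arrays of the doses did not overlap, and of Cyp2c11 and Cyp2c13 (-0.4, -0.68 to -0.11) at 24 h. The share of all probe sets under that unadjusted cut-off was not counted.

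Whether the response to a dose differed between times was tested as an interaction, the DINP effect at 48 h minus that at 24 h. With 25 mM 1 of the 6 members was called, Cyp2c6v1 (0.54 ± 0.11, adjusted p = 0.0147), against 0.242% of all tested probe sets (0.161% higher). That call was lost with each array centred on its median (0.46, adjusted p = 0.158) and without a trend in the fit (adjusted p = 0.062). With 100 mM 0 of the 6 were called by limma, against 0.0644% of all. Unadjusted p-values lay under 0.05 for Cyp2c6v1 (0.47 ± 0.11, adjusted p = 0.0934), Cyp2c11 (-0.57 ± 0.18, adjusted p = 0.434) and Cyp2c13 (0.45 ± 0.19, adjusted p = 0.744). The share of all probe sets under that unadjusted cut-off was not counted. Array weights brought the Cyp2c6v1 value over the threshold (0.48, adjusted p = 0.0446). For Cyp2c11 with 25 mM the interaction was -0.48 ± 0.18 (adjusted p = 0.43).

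Between 48 and 24 h, 4 of the 6 members were lower in each treatment and 0 were higher. These calls stood against 14.6% of all probe sets (8.2% lower) with 25 mM, 8.89% (4.6% lower) with 100 mM and 14.4% (7.68% lower) with vehicle. The medians over the 6 members were -0.52, -0.60 and -0.43, against 0.01, -0.02 and 0.00261 over all tested probe sets. Cyp2c13, Cyp2c7 and Cyp2c23 were lower in all 3 treatments. The fourth call was Cyp2c11 with 25 mM (-0.55 ± 0.13, adjusted p = 0.00334) and with 100 mM (-0.64 ± 0.13, adjusted p = 0.00115, where 1 array of 48 h overlapped those of 24 h), and Cyp2c6v1 with vehicle (-0.37 ± 0.08, adjusted p = 0.000916). Vehicle wells gave -0.07 ± 0.13 for Cyp2c11 (adjusted p = 0.805), and DINP wells gave 0.17 ± 0.08 with 25 mM (adjusted p = 0.148) and 0.10 ± 0.08 with 100 mM (adjusted p = 0.491) for Cyp2c6v1.

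**Figure D4:**
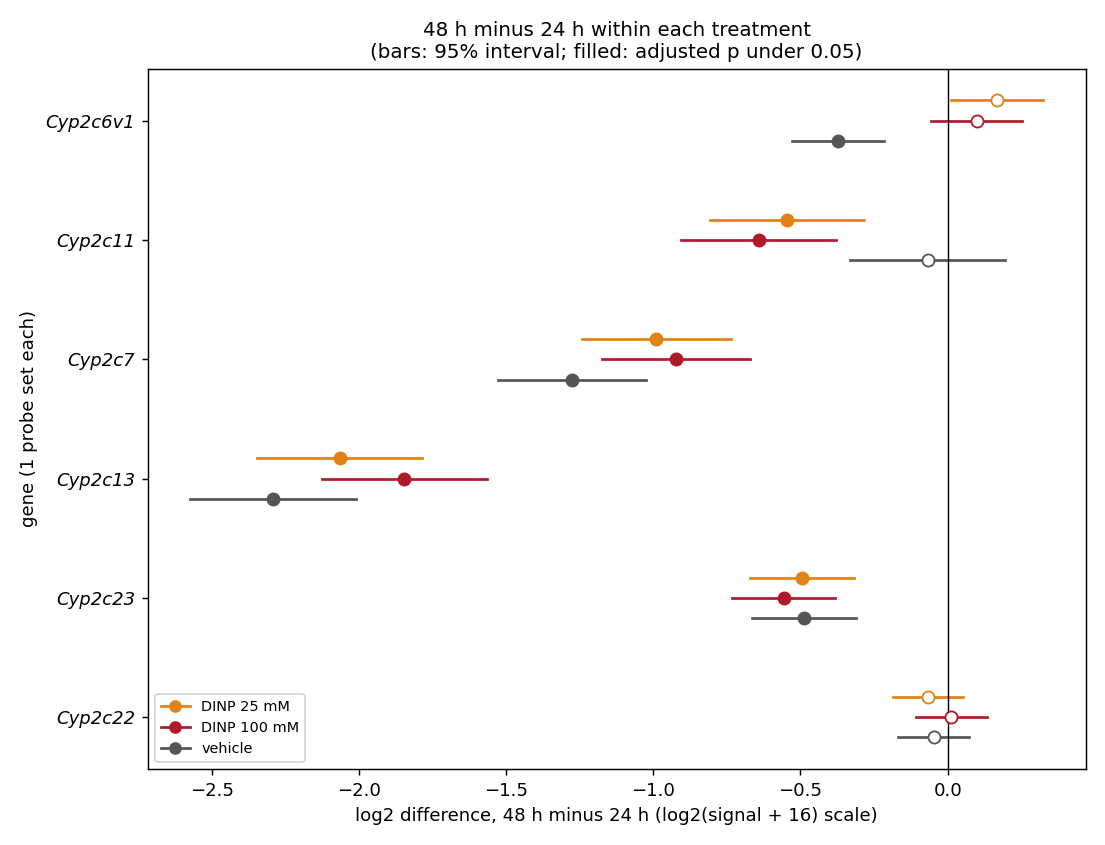
Log2 difference of 48 h minus 24 h for each member in the DINP 25 mM, DINP 100 mM and vehicle wells (points; bars are 95% intervals; filled points passed the adjusted p of 0.05). Cyp2c13 had the lowest values, between -2.29 and -1.85, and Cyp2c22 the values nearest 0.

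The genes whose pattern over the 30 arrays was most like a member's, by Pearson correlation among 10603 other genes, were the following. For Cyp2c13 they were the serine protease inhibitor genes Serpina3l (0.986), Serpina3c (0.985) and Serpina6 (0.985), and for Cyp2c7 they were Cyp2c13, Serpina6 (0.947) and Nucb2 (0.944). Those of Cyp2c11 were Akr1c14 (0.901), a hydroxysteroid dehydrogenase, Zmynd11 (0.882) and Ppp3r1 (0.876). Those of Cyp2c6v1 were Hgd (0.901), an enzyme of tyrosine breakdown, Acsm3 (0.899) and Hsd17b6 (0.878). Cyp2c23 was most like Mx2 (0.899), C6 (0.887) and Cyp1a2 (0.882), and Cyp2c22 most like Taldo1 (0.894), Ndufa4 (0.877) and Rps3a (0.871). Among the members, Cyp2c6v1 and Cyp2c11 had a correlation of -0.615 over arrays and 0.285 within groups, and Cyp2c13 and Cyp2c23 one of 0.876 and 0.628. The genes share arrays and the 6 groups, and these values describe no shared control.

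Of the other Cyp2 genes, 16 of 31 listed had a tested probe set, each gene taken at its brightest. With DINP at 48 h 4 rose and 1 fell at 25 mM, and 4 rose and 2 fell at 100 mM; over all 10604 genes 9.78% rose and 12.1% fell at 25 mM, and 8.69% rose and 9.2% fell at 100 mM. The male-specific Cyp2a2, a testosterone hydroxylase, rose by 0.72 ± 0.09 at 25 mM (adjusted p = 1.63e-07) and by 0.55 ± 0.09 at 100 mM (adjusted p = 1.87e-05). Cyp2d3 rose by 0.86 and 0.67, Cyp2j4 by 0.46 and 0.40, and Cyp2a1 by 0.47 and 0.33, a call that was lost with quantile normalisation at 100 mM. Cyp2t1 fell by 0.74 at 25 mM and by 0.59 at 100 mM. Cyp2c12, the female-specific family member, differed from vehicle by 0.05 ± 0.15 with 25 mM and -0.05 ± 0.15 with 100 mM at 48 h (adjusted p = 0.884 and 0.878). Its probe set gave a lower signal at 48 h than at 24 h with 25 mM (-0.71 ± 0.15, adjusted p = 0.00131), with 100 mM (-0.72 ± 0.15, adjusted p = 0.00192) and with vehicle (-0.99 ± 0.15, adjusted p = 2.63e-05). The cells were male, and binding of other Cyp2c transcripts to this probe set was not tested. At 24 h 2 of the 16 rose and 3 fell with 25 mM, and 2 rose and 1 fell with 100 mM, against 7.87% and 7.84%, and 7.54% and 7.02%, of all genes.

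Among 16 of 25 listed genes of the growth hormone axis and of sex-biased liver expression, 4 rose and 2 fell with 25 mM at 48 h, and 3 rose and 1 fell with 100 mM. At 25 mM the counts were 2 higher and 2 lower both with quantile normalisation and with median centring. Over all genes 9.78% rose and 12.1% fell at 25 mM in the main fit, and 8.69% rose and 9.2% fell at 100 mM. Cyp3a2, a male-specific testosterone hydroxylase of rat liver, averaged 6579 ± 1108 with 25 mM, 5299 ± 1036 with 100 mM and 2065 ± 321 with vehicle at 48 h (SD, n = 5 each), and the groups did not overlap. It rose 3.16-fold at 25 mM (1.66 ± 0.14, adjusted p = 6.73e-11) and 2.54-fold at 100 mM (1.34 ± 0.14, adjusted p = 9.50e-09), the opposite direction to Cyp2c11. In vehicle wells Cyp3a2 was lower at 48 h than at 24 h (-1.51 ± 0.14, adjusted p = 3.26e-09). In DINP wells its difference between the times was not called (-0.14 with 25 mM and 0.03 with 100 mM). Against vehicle at 24 h it was called at neither dose (0.29 and -0.19). Its interaction, 48 h minus 24 h, was called at both doses (1.37 and 1.54). Igfbp3 fell by 1.12 and Rgn, a calcium-binding protein gene, by 0.38 at 25 mM. The receptor and signal genes of growth hormone were not called at 48 h: Ghr differed by -0.10 and -0.16, Stat5b by 0.05 and 0.14 and the repressor Bcl6 by -0.16 and -0.09. At 24 h 0 of the 16 rose at either dose by limma and 1 fell at each. Of all genes 7.87% rose and 7.84% fell there with 25 mM, and 7.54% rose and 7.02% fell with 100 mM.

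Of 18 measured regulators of hepatic Cyp2c transcription (23 listed), 6 rose and 3 fell with 25 mM at 48 h and 5 rose and 3 fell with 100 mM. With quantile normalisation and with median centring alike, the lower calls were 2 at 25 mM and 1 at 100 mM, and the higher calls were 6 and 5. The main fit's shares over all genes were 9.78% higher and 12.1% lower at 25 mM, and 8.69% and 9.2% at 100 mM. The constitutive androstane receptor gene Nr1i3 rose by 0.33 ± 0.07 and 0.29 ± 0.07, and the pregnane X receptor gene Nr1i2 by 0.41 ± 0.07 at both doses. Cebpa, a liver transcription factor, rose by 0.70 and 0.50 at its brightest probe set; of its 5 tested probe sets 3 were called higher at 25 mM and 2 at 100 mM. The bile acid receptor gene Nr1h4 rose by 0.71 and 0.57, and the coactivator gene Ppargc1a fell by 0.72 and 0.69. Onecut1 fell by 0.72 at 25 mM (adjusted p = 0.0216) and differed by -0.49 at 100 mM (adjusted p = 0.144). A link from Onecut1 to the members that hold its core motif was not tested. Hnf4a rose by 0.25 at 25 mM (adjusted p = 0.00387) and differed by 0.12 at 100 mM, with 1 of its 3 tested probe sets called at 25 mM. At 24 h 3 rose and 4 fell with 25 mM, and 3 rose and 3 fell with 100 mM. The shares of all genes there were 7.87% higher and 7.84% lower, and 7.54% and 7.02%. In vehicle wells 0 rose by limma and 4 fell at 48 h against 24 h, against 9.49% of all genes higher and 7.92% lower. Rora was among them (-0.62). Hnf4a counts as lower by its brightest probe set (-0.31), but its 3 tested probe sets disagreed, with 1 called lower and 1 called higher (0.51). The single probe set of Ppara was too dim to test.

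Genes that supply P450 enzymes with electrons and haem had 15 of 16 members tested, of which 7 rose and 2 fell with 25 mM at 48 h and 6 rose and 2 fell with 100 mM. At 25 mM both other scalings gave 4 higher and 2 lower. At 100 mM median centring gave 9 higher and 0 lower by limma, and quantile normalisation 5 higher and 2 lower. In the main fit 9.78% of all genes rose and 12.1% fell at 25 mM, and 8.69% rose and 9.2% fell at 100 mM. Alad, of haem synthesis, rose by 0.71 and 0.64, and Pgrmc2, of haem transfer, by 0.56 and 0.50. Alas1, the rate-limiting step of haem synthesis, rose by 0.39 at 25 mM (adjusted p = 0.0107) and differed by 0.30 at 100 mM (adjusted p = 0.0611). Por, the P450 reductase gene, rose by 0.25 at 25 mM and the haem oxygenase gene Hmox1 by 0.24, calls that were lost both with quantile normalisation and with median centring; at 100 mM Hmox1 rose by 0.38. Cyb5b and Cpox fell, by 0.33 and 0.25 at 25 mM. At 24 h 3 rose and 1 fell with 25 mM, and 4 rose and 1 fell with 100 mM. Of all genes 7.87% rose and 7.84% fell there with 25 mM, and 7.54% rose and 7.02% fell with 100 mM.

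In the list of arachidonic acid epoxide and eicosanoid metabolism, the pathway of Cyp2c23, 15 of 21 genes were tested. With 25 mM at 48 h 6 rose and 0 fell, and with 100 mM 5 rose and 2 fell, the 2 being Cyp2j10 and Cyp4f1. At 100 mM the lower calls were 1 with quantile normalisation and 0 with median centring by limma. The main fit's shares over all genes were 9.78% higher and 12.1% lower at 25 mM, and 8.69% and 9.2% at 100 mM. Ephx2, the soluble hydrolase that breaks down the epoxides, rose by 1.12 ± 0.05 and 1.10 ± 0.05. The fatty acid hydroxylase gene Cyp4a1 rose by 2.50 and 2.38 and Cyp4a3 by 1.83 and 1.81, and Cyp4a probes can bind each other's transcripts. At 24 h 5 rose and 1 fell with 25 mM, and 5 rose and 0 fell with 100 mM. The shares of all genes there were 7.87% higher and 7.84% lower, and 7.54% and 7.02%.

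Markers of liver cell types were read beside these results. Of 13 hepatocyte markers 11 were tested, and their summed signal at 48 h ran from 747112 to 868825 with 25 mM, from 794666 to 900315 with 100 mM and from 729737 to 846512 with vehicle, which overlap. That sum is weighted towards its brightest probe sets, such as Alb and Arg1, and single markers moved. At 48 h 3 rose and 1 fell with 25 mM, and 3 rose and 2 fell with 100 mM, and at 24 h 2 rose and 1 fell at each dose. With quantile normalisation the counts at 48 h were 2 higher and 4 lower at both doses. Median centring gave 3 higher and 1 lower at 25 mM, and 4 higher and 1 lower at 100 mM. Over all genes 9.78% rose and 12.1% fell at 25 mM and 48 h in the main fit, and 8.69% rose and 9.2% fell at 100 mM. At 24 h these shares were 7.87% and 7.84% at 25 mM, and 7.54% and 7.02% at 100 mM. Asgr1, an asialoglycoprotein receptor gene, averaged 16106 ± 753 with 25 mM, 15823 ± 868 with 100 mM and 10085 ± 383 with vehicle at 48 h (SD, n = 5 each), without overlap of DINP and vehicle arrays. Its differences were 0.67 and 0.65 at 48 h. Pck1, of glucose synthesis, rose by 0.83 and 0.71 there, and Tat, of tyrosine breakdown, fell by 0.82 and 0.83. Albumin (Alb) was called in none of the DINP comparisons. The summed signal of 7 of 10 stellate cell and fibroblast markers was lower with DINP at both times: 9347 to 10966 with 25 mM, 9859 to 12116 with 100 mM and 13224 to 21637 with vehicle at 48 h, and 8349 to 9654, 9319 to 10530 and 14588 to 15762 at 24 h. This sum too is weighted towards its brightest probe sets, and most of the 7 were not called. By limma 1 fell with 25 mM and 2 with 100 mM at 48 h, and 1 at each dose at 24 h. In these comparisons 0 rose, and the shares over all genes are those given above. Vim was lower in all 4 comparisons (-1.09 and -0.81 at 48 h, -1.01 and -0.79 at 24 h) and Acta2 at 100 mM and 48 h (-0.52), the collagen genes Col1a1 and Col3a1 were called in no DINP comparison, and Col1a2, Pdgfrb and Lrat were not among the tested probe sets. The sum of 8 of 11 Kupffer cell and macrophage markers at 48 h was 31998 to 37011 with 25 mM, 34075 to 35503 with 100 mM and 28568 to 31431 with vehicle, where Cd14 (0.42 and 0.34) and C1qb (0.79 and 0.94) rose. Lyz2 fell with 25 mM at 48 h (-0.23) and at 24 h (-0.18), and neither call held with median centring. At 24 h the sum was 30008 to 32681 with 25 mM, which did not overlap the 28177 to 29577 of vehicle, and 28966 to 30760 with 100 mM, which did. Cd14 rose at 24 h at both doses (0.25 and 0.19) and C1qc with 25 mM (0.37), while Cd163, Marco and Adgre1 were not among the tested probe sets. The Cd14 call at 100 mM and 24 h was lost with quantile normalisation. Of 8 endothelial markers 3 were tested and 0 were called with DINP by limma, and of 7 cholangiocyte markers 2 were tested, of which Epcam fell at 48 h (-0.35 and -0.22). The Epcam call at 100 mM was lost with median centring. The part of these shifts in the differences of Cyp2c11 and Cyp2c6v1 was not tested.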

How the data were processed

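Transcripts were measured on 30 arrays. The deposited intensity values are linear signals, 1 per probe set and array, made by the authors with MAS5 per the submitters' processing notes, whose version is not given in the sources used here. Their 2% trimmed mean lay between 1500.65 and 1500.76 on all arrays, which shows a common scaling by the authors. Detection calls were not used here.

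From these signals log2(signal + 16) was computed, 57 control probe sets were dropped, and probe sets at or above the 40th percentile of mean log2 signal (7.96) were tested. Of 31042 probe sets 20826 had 1 symbol, 436 had several and 9780 were unnamed here; the names come from the platform annotation, updated through Entrez IDs for 20758. One fit of all 6 groups (24 residual degrees of freedom) was made with limma 3.58.1 in R 4.3.3, with empirical Bayes moderation and a trend, and p-values were adjusted by Benjamini-Hochberg over all tested probe sets within each comparison. The fit was tested on simulated data.

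Genes of the lists were taken at their brightest tested probe set; called genes with the largest differences, up to 4 per list and comparison, and a set of fixed genes were named. The members and lists were chosen with earlier results of these data known. Alternatives were other constants (1 and 64), no filter, quantile normalisation, median centring, compared groups alone, no trend, array weights, array round as a block and leaving out each array. Replicates carry numbers in sample order, because the labels give no pairing of wells, and each number equals the round of its array. A round is 6 consecutive array numbers with 1 array of each group. Upstream windows, motifs and local alignments (Biopython 1.88) used RefSeq sequence of assembly GRCr8.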

Additional observations from a re-analysis of the deposited data

Results flagged for a closer look

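Cyp2c23 gave both single arrays that stood far from the rest of their group: DINP 100 mM 48 h replicate 2 had a signal of 3132, against 3731 to 3845 on the other 4 arrays, and vehicle 48 h replicate 2 had 5340, against 4217 to 4467. These were 2 of 36 groups examined (6 probe sets in 6 groups), and chance flags about 1 in 20 groups. Both arrays enter the called difference of Cyp2c23 at 100 mM and 48 h, and that call was lost without either one.

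The effect of DINP 25 mM on Cyp2c6v1 differed between the times: the interaction, 48 h minus 24 h, was 0.54 ± 0.11 (limma adjusted p = 0.0147). The DINP effect was 0.73 at 48 h and 0.19 at 24 h, and vehicle wells were lower at 48 h than at 24 h by a log2 difference of -0.37.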

How the results depend on the processing

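Of 229 counts of called members under other settings 213 stayed within 1.5 times the main count, and of 1374 single-gene values 1320 kept their direction and their side of the threshold. The calls of Cyp2c11 and Cyp2c6v1 against vehicle at 48 h, and of Cyp2c13, Cyp2c7 and Cyp2c23 between the times, held under all 19 alternatives run for each. The Cyp2c22 difference between the times at 25 mM, not called, was called with quantile normalisation (-0.12, adjusted p = 0.045). Causes of the shifts below were not tested.

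The count for DINP 100 mM at 24 h, 0, was 1 with quantile normalisation, 3 with the compared groups alone, 3 with array weights and 2 with the array round as a block; it was 0 to 1 when arrays were left out in turn, with a call of Cyp2c11 without DINP 100 mM 24 h replicate 1 or vehicle 24 h replicate 4, of Cyp2c23 without DINP 100 mM 24 h replicate 5 or vehicle 24 h replicate 1, and of Cyp2c7 without vehicle 24 h replicate 5. For DINP 25 mM at 24 h, 1, it was 2 with median centring and 2 with the compared groups alone, where Cyp2c6v1 was added. For DINP 100 mM at 48 h, 4, it ran from 2 to 4, with 2 without DINP 100 mM 48 h replicate 2 or vehicle 48 h replicate 2. The interaction at 25 mM, 1, was 0 with median centring and 0 without a trend, and that at 100 mM, 0, was 1 with array weights.

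Values near 0 turned sign: Cyp2c23 was 0.0124 in the interaction at 25 mM with quantile normalisation and -0.0693 to 0.0591 over left-out arrays, and 0.0096 at 25 mM and 24 h with median centring. Cyp2c22 was -0.0671 between the times at 100 mM with quantile normalisation and -0.0144 to 0.0329 over left-out arrays, -0.0598 to 0.0220 in the interaction at 25 mM, and -0.0611 to 0.0121 between the doses at 24 h. Over left-out arrays Cyp2c7 ran from -0.0340 to 0.119 at 100 mM and 48 h, and Cyp2c11 from -0.147 to 0.0152 between the times in vehicle wells.

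Median centring moved the share of higher calls among all called probe sets to 65.2% at 25 mM and 70.8% at 100 mM at 24 h and to 75.1% at 100 mM and 48 h, against 43.9%, 45.1% and 44.6%; between the times it was 24.9% with 25 mM and 59.9% with 100 mM, against 44% and 48.2%. In the interactions it was 46.2% of the calls at 25 mM with median centring, against 66.7%, and 50% at 100 mM with quantile normalisation, against 75%. The labels give no replicate numbers to pair wells by, so the array round, 1 array of each group, was the block that could be fitted, with the changes given above. Arrays of one round had a median correlation of residuals of 0.00443, against -0.00086 for arrays of other rounds. Dim probe sets, Ppara among them, and any cross-binding of probes limit what the signals can show.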
